A study of Mus musculus with 121 samples.

Results

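The substantia nigra (SN) of mice heterozygous for a conditional Gdnf upregulation allele was compared with that of wild-type littermates in the Nestin-Cre model. The samples are those that the labels place in the SN of this model with the genotype HET or WT, and they number 13 of the 121 in the series, 7 HET and 6 WT. RNA was measured in 3 brain regions, the prefrontal cortex (PFC), the striatum (STR) and the SN, in 2 models that activate the same allele. In one model Cre comes from a Nestin-Cre cross, and in the other from an adeno-associated virus (AAV-Cre) injected into the striatum of adult mice. RNA was counted per gene by sequencing of poly(A) libraries, and every sample is 1 region of 1 mouse.

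The allele, which the labels call cKU and the study calls Gdnf cHyper, gives after recombination by Cre a Gdnf mRNA with a shorter untranslated end. WT mice were wt/wt, HET mice wt/cKU and HOM mice cKU/cKU, all from the strain labelled GDNF cKU x Nestin-Cre on a 129Ola/ICR/C57bl6 mixed background. Nestin-Cre is active in precursors of neurons and glia throughout the central nervous system from mid-gestation, so recombination is neither limited to the SN nor to the cells that make GDNF in the adult. The labels give the Nestin-Cre cross for every group, WT included. The mice were males of 2 months with no treatment. Tissue was taken from 2-mm slices, and 200 ng of RNA per sample entered a stranded mRNA protocol read as 75-bp single-end reads. The AAV-Cre mice used below for comparison were wt/cKU (HET) or wt/wt (WT), all with the injection into the striatum on both sides at 3 to 5 months, and were older, at 5 to 7 months.

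GDNF is a secreted neurotrophic factor that binds the co-receptor GFRA1 and signals through the receptor tyrosine kinase RET. Dopamine neurons of the SN carry both receptors and take up GDNF at their terminals in the striatum, where interneurons make it. In these cells RET signalling is known to promote survival, terminal sprouting and dopamine release.

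Total counts per sample were 13769516, 15487994 and 22399651 (lowest, median and highest) in WT and 15970912, 18971257 and 25305502 in HET. Levels are given as cpm, the counts of a gene relative to all counts of its sample after scaling by the trimmed mean of M values, in the order lowest, median and highest, with n = 6 WT and n = 7 HET throughout. Of 24412 genes in the table, 14873 had at least 1 cpm in at least 3 of the WT, HET and HOM samples of this SN and were tested.

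The labelled tissue was checked by its markers, here as cpm of total counts without scaling. Th, which encodes the rate-limiting enzyme of dopamine synthesis, had a median of 639 cpm in WT SN against 13.6 in WT STR and 13.1 in WT PFC. Slc6a3, the dopamine transporter, had a median of 1115 cpm in WT SN, 0.361 in WT STR and 1.11 in WT PFC. Adora2a, a receptor of striatal projection neurons, was at 1.19 cpm in WT SN and 512 in WT STR, and Slc17a7, the vesicular glutamate transporter of cortical neurons, was at 9.61 cpm in WT SN and 1651 in WT PFC.

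Several samples stood apart before any comparison was made. An index of striatal RNA was taken as the median level of 76 genes, chosen in the AAV-Cre model for being at least 16-fold higher in STR than in SN, as a percentage of their level in Nestin-Cre STR. It was 1.99, 2.31 and 6.11% in WT and 2.25, 3.24 and 20.6% in HET, and the sample at 20.6% was HET_4566. A cortical index made in the same way from 56 genes and the PFC was 1.97, 2.64 and 13.1% in WT and 2.49, 4.30 and 23.2% in HET. HET_4566 was again the highest, and WT_4394 at 13.1% and WT_4329 at 9.01% were above every other HET sample. The exact two-sided permutation p for HET against WT was 0.674 for the striatal and 0.778 for the cortical index, and 0.885 and 0.485 without HET_4566. The 20 markers of striatal projection neurons summed to 2721 cpm in HET_4566 and to between 469 and 627 cpm in the other 12 samples.

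Samples also differed in how long and short transcripts were represented. An exon length index, the median deviation of the genes in the longest of 10 groups of equal size by exon length minus that in the shortest, was -0.40, -0.18 and 0.23 in WT and -0.21, 0.11 and 0.77 in HET on the log2 scale. The groups overlapped, HET_4628 was the highest, and the exact two-sided permutation p was 0.0822, or 0.0606 without HET_4566. Meg3, a long non-coding RNA named after its values were seen, was at 5861 to 6578 cpm in HET_4577, HET_4606 and HET_4628 and at most at 2661 cpm in the other HET and all WT samples. Among HOM samples, HOM_4580 at 6488 and HOM_4627 at 5858 cpm were alike, which makes 5 samples high in Meg3. The mouse of HOM_4575, labelled HOM in SN and STR, is labelled WT in PFC. Its SN sample kept its label and enters the fit only as a HOM sample.

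**Figure D1:**
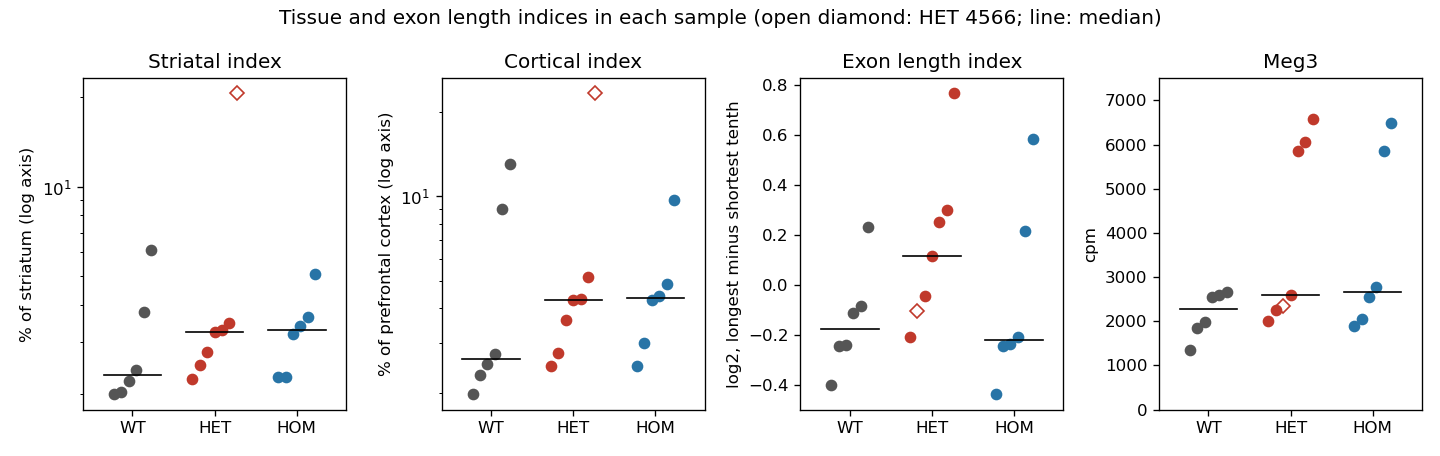
Striatal index (percent of the striatal level, log axis), cortical index (percent of the prefrontal cortex level, log axis), exon length index (log2) and Meg3 (cpm) in each Nestin-Cre SN sample of the 3 genotypes. Points are samples, lines are medians and the open diamond is HET_4566, at 20.6% in the striatal and 23.2% in the cortical index.

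The first question was how RNA of the SN differed in mice with one conditional copy of the allele, active from mid-gestation. No gene passed edgeR's quasi-likelihood test. Over all genes tested the median log2 fold change was 0.00209, with values from -1.88 to 7.01. The gene of smallest p was Itgam, a microglial integrin, which was lower in every HET sample than in any WT sample. Markers of microglia and of oligodendrocytes were lower throughout their lists, while the genes that define dopamine neurons overlapped between the groups over most of their range. With the exon length index as a covariate the medians of both glial lists were smaller in size, at -0.20 for microglia. Markers of striatal projection neurons were higher, with a median log2 fold change of 0.89 that was 0.13 without HET_4566.

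With edgeR's quasi-likelihood test, 0 of 14873 genes (0%) passed an adjusted p of 0.1. The smallest adjusted p was 0.213. An unadjusted p under 0.05 was found for 759 genes higher in HET (5.10%) and 578 lower in HET (3.89%). DESeq2 called 5 genes and edgeR's likelihood ratio test, which leaves out the uncertainty of each gene's dispersion, called 332. Without HET_4566 the quasi-likelihood test called 0 of 14840 genes, with a smallest adjusted p of 0.494, and an unadjusted p under 0.05 was found for 762 genes higher (5.13%) and 652 lower (4.39%). Over all genes tested, 7489 were higher and 7384 lower in HET, and the median log2 fold change was 0.00209. The levels of the 7 HET samples did not overlap those of the 6 WT samples for 16 genes higher in HET (0.108%) and 10 genes lower in HET (0.0672%). For any given gene, complete separation in either direction has an exact two-sided permutation p of 0.00117.

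Itgam (Entrez 16409, chromosome 7, 128062640 to 128118491 in mm10) encodes the alpha subunit of complement receptor CR3. Its levels were 23.0, 31.4 and 33.7 cpm in WT and 17.6, 19.9 and 22.7 cpm in HET. The groups did not overlap, and the lowest WT samples, WT_4329 and WT_4394, lay just above the highest HET sample. The log2 fold change was -0.56 (SE 0.10, adjusted p = 0.213 by edgeR's quasi-likelihood test), with 7 of 7 HET samples below the WT mean. Without HET_4566 it was -0.56. DESeq2 called it with an adjusted p of 0.000731. Leaving out WT_4329 gave an adjusted p of 0.0477 in the quasi-likelihood test, and leaving out WT_4394 gave 0.0373. As these are the lowest WT samples, leaving out either widens the gap. In the other 11 of 13 single omissions Itgam was not called. The smallest adjusted p of any gene in that test was then as high as 0.801 without WT_4529 and 0.733 without WT_4545.

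Ppp3cc (Entrez 19057, chromosome 14, 70217865 to 70289497), a catalytic subunit of the phosphatase calcineurin, was at 18.3, 20.1 and 20.8 cpm in WT and 14.7, 16.2 and 17.4 cpm in HET. AA388235 (Entrez 433100) was at 6.74, 7.27 and 8.75 cpm in WT and 3.42, 4.15 and 6.41 cpm in HET. Both were lower in HET with no overlap, by log2 fold changes of -0.29 (SE 0.07) and -0.73 (SE 0.20). Ptgs1 (Entrez 19224), the cyclooxygenase COX-1 that in brain is mostly microglial, was at 18.3, 20.8 and 24.7 cpm in WT and 11.3, 16.2 and 18.9 cpm in HET, a log2 fold change of -0.47 (SE 0.11), and only HET_4578 reached the lowest WT sample. Gsn (Entrez 227753), the actin-severing protein gelsolin, was at 232, 317 and 341 cpm in WT and 191, 216 and 238 cpm in HET. Its groups met only at WT_4394, the lowest WT sample, and HET_4566, the highest HET sample. The other genes among the 10 of smallest p in this direction were Pcnp, Ifrd1, 9330117O12Rik, 3110035E14Rik and Cisd3, with log2 fold changes from -0.80 in 9330117O12Rik to -0.29 in Ifrd1. All 10 had 7 of 7 HET samples below the WT mean, which follows largely from their choice by smallest p in this direction. None passed the adjusted test.

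Among genes with higher levels in HET, Akap9 (Entrez 100986, chromosome 5, 3928186 to 4080204), a scaffold that anchors protein kinase A at the Golgi apparatus and centrosome, had the smallest p. It was at 73.7, 85.1 and 91.6 cpm in WT and 103, 123 and 141 cpm in HET. All HET samples lay above all WT samples, with a log2 fold change of 0.50 (SE 0.11, adjusted p = 0.518 by edgeR). Mc3r (Entrez 17201, chromosome 2, 172248492 to 172251114), a melanocortin receptor, was at 0.579, 0.948 and 1.41 cpm in WT and 1.53, 2.10 and 3.60 cpm in HET. The groups did not overlap, though in WT the gene lay at the level of the filter, and the log2 fold change was 1.29 (SE 0.29). Ears2 (Entrez 67417), the mitochondrial glutamyl-tRNA synthetase, was at 9.38, 11.2 and 12.5 cpm in WT and 13.1, 15.5 and 15.9 cpm in HET, again with no overlap, and its log2 fold change was 0.43 (SE 0.10).

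DESeq2 called Akap9 (adjusted p = 0.047), Mc3r (0.0802), Ears2 (0.0918) and 5031425E22Rik (0.062), all higher in all 7 HET samples than the WT mean, with log2 fold changes by DESeq2 from 0.42 in Ears2 to 1.29 in Mc3r. Spry4 (Entrez 24066, chromosome 18, 38586265 to 38601268), an inhibitor of receptor tyrosine kinase signalling that RET and related receptors induce, was at 8.09, 10.4 and 12.2 cpm in WT and 13.02, 14.8 and 18.7 cpm in HET. Its groups did not overlap, and the log2 fold change was 0.55 (SE 0.15, adjusted p = 0.518 by edgeR). Dgkh, a diacylglycerol kinase, was at 2.03, 2.62 and 3.52 cpm in WT and 3.66, 4.21 and 10.1 cpm in HET, with no overlap and with HET_4566 the highest. Nav1, a neuronal microtubule-binding protein, was at 75.4, 85.3 and 100.3 cpm in WT and 99.9, 125 and 229.9 cpm in HET, and its groups met only at WT_4609 and HET_4578, while its 3 highest samples were the 3 HET samples high in Meg3. The others of the 10 with the smallest p in this direction were 5031425E22Rik, Hdhd3, Zfp169 and Zfp236, with log2 fold changes from 0.45 to 0.65. As these 10 were chosen by p, the separation of their groups follows largely from the choice.

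**Figure D2:**
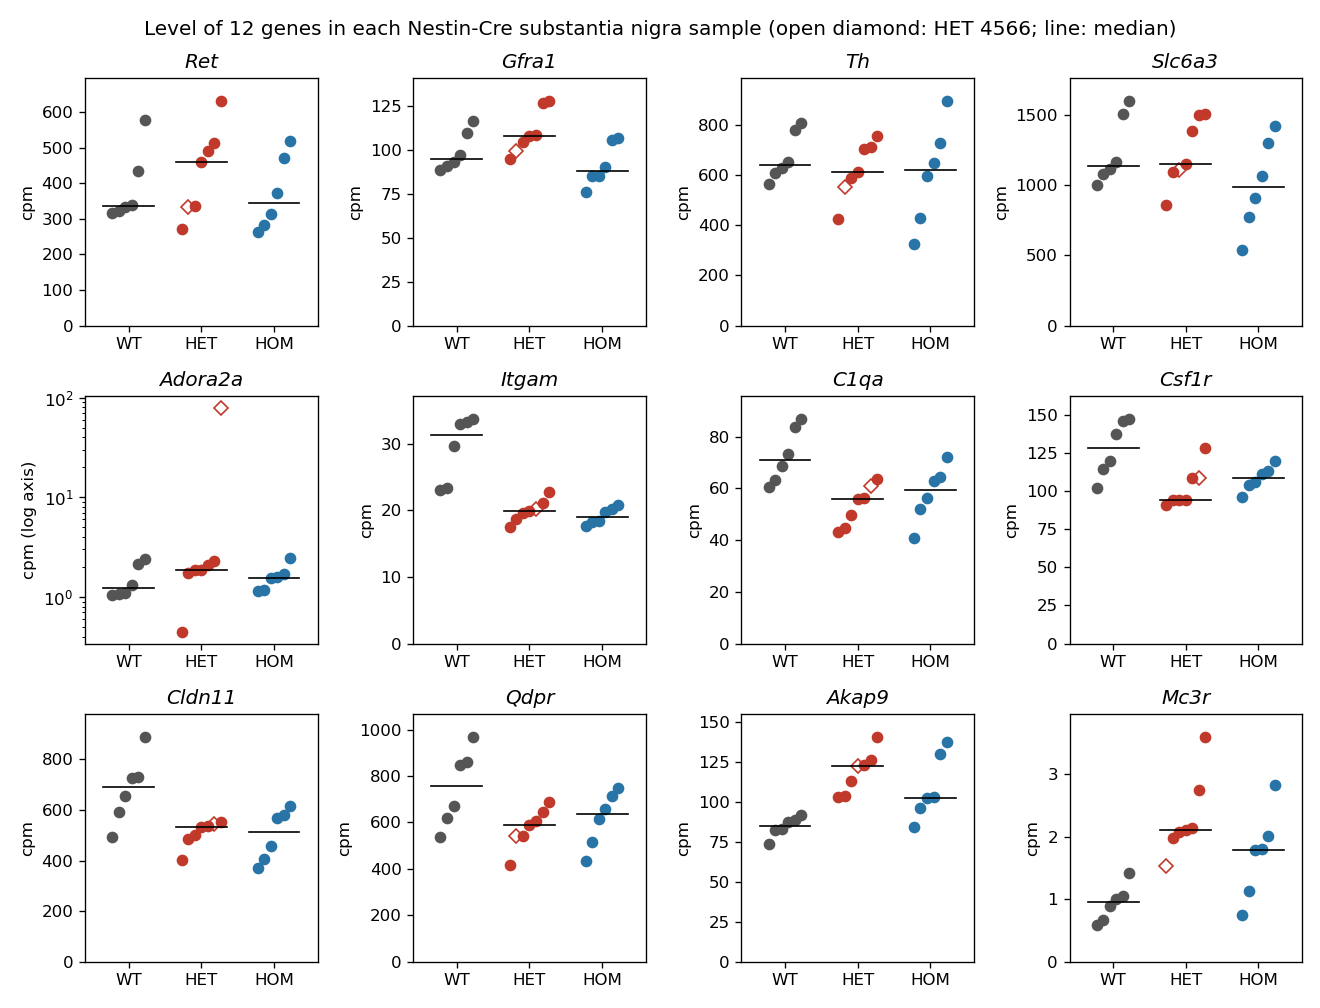
Levels (cpm) of 12 genes in each Nestin-Cre SN sample of the WT, HET and HOM groups, on axes that start at 0 except the log axis of Adora2a. Points are samples, lines are medians and the open diamond is HET_4566. HET and WT do not overlap for Itgam, Akap9 and Mc3r, and only HET_4566 stands out for Adora2a, at 79.4 cpm.

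Gdnf itself (Entrez 14573, chromosome 15, 7810048 to 7837580), the ligand whose allele distinguishes the groups, was below the filter in these samples. It had 4, 7 and 11 counts in WT and 5, 12 and 38 counts in HET, or 0.295, 0.449 and 0.530 cpm in WT and 0.3001, 0.533 and 1.66 cpm in HET. The groups overlapped, and the highest value, at 38 counts, was that of HET_4566. The exact two-sided permutation p was 0.307, and the log2 ratio of mean cpm ran from 0.17 without HET_4566 to 0.72 when each sample was left out in turn. Without the filter, edgeR's quasi-likelihood test gave Gdnf a log2 fold change of 0.60 (SE 0.36, adjusted p = 0.594). So few counts limit the precision of these values, and they do not separate transcripts with the shorter end from those of the unaltered allele. Of the other ligands of the family, only Nrtn reached the filter, with a log2 fold change of -0.25, while Artn had 4 to 20 counts per sample and Pspn 0 or 1.

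The receptors of the family were expressed and did not separate the groups. Of 8 genes listed, 7 were tested, 6 were higher and 1 lower in HET, 0 passed the test, 0 had an unadjusted p under 0.05, and the median log2 fold change was 0.17 against 0.00209 for all genes. Ret (Entrez 19713, chromosome 6, 118151748 to 118197744) was at 317, 337 and 578 cpm in WT and 270.4, 459.9 and 632 cpm in HET. HET samples held both the lowest and the highest value, 4 of 7 were above the WT mean, and the log2 fold change was 0.16 (SE 0.20, adjusted p = 0.731 by edgeR). Gfra1 (Entrez 14585, chromosome 19, 58235581 to 58455398) was at 88.4, 94.9 and 116 cpm in WT and 94.9, 108 and 128 cpm in HET. Its groups overlapped over most of their range, and the log2 fold change was 0.15 (SE 0.10, adjusted p = 0.535). Gfra2, the co-receptor preferred by neurturin, was at 19.6, 30.7 and 35.7 cpm in WT and 26.3, 40.2 and 48.1 cpm in HET, with a log2 fold change of 0.34 (SE 0.19). Without HET_4566 the median of the list was 0.21. Gfra2, with a log2 fold change of 0.41, was then the 1 gene at an unadjusted p under 0.05. With the exon length index as a covariate, an alternative chosen after the data were seen, the median of the list was 0.02.

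Th and Ddc, of dopamine synthesis, and the genes of dopamine transport and identity were near their WT levels. Th (Entrez 21823, chromosome 7, 142892776 to 142899966) was at 565, 639.9 and 808 cpm in WT and 426, 611 and 756 cpm in HET. Slc6a3 (Entrez 13162, chromosome 13, 73536747 to 73578672) was at 1003, 1136 and 1598 cpm in WT and 857, 1151 and 1508 cpm in HET. For both genes the lowest value was that of HET_4628, the highest was in WT, and the groups overlapped. The log2 fold changes were -0.12 (SE 0.18) for Th, -0.02 (SE 0.19) for Slc6a3, -0.04 (SE 0.17) for the vesicular monoamine transporter Slc18a2 and -0.01 (SE 0.18) for the decarboxylase Ddc. None of these had an adjusted p under 0.783 by edgeR. The 10 markers of dopamine neurons summed to 2843, 3048 and 4110 cpm in WT and 2333, 3136 and 4039 cpm in HET, 5 were higher and 5 lower, and their median log2 fold change was 0.06.

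Enzymes of tetrahydrobiopterin, the cofactor of dopamine synthesis, differed in direction. Qdpr, which regenerates the cofactor, was at 538, 758 and 969 cpm in WT and 416, 588 and 686 cpm in HET. Pts, which makes it, was at 19.3, 31.9 and 35.8 cpm in WT and 14.8, 22.8 and 28.3 cpm in HET. In both, 7 of 7 HET samples were below the WT mean but the groups overlapped, with log2 fold changes of -0.39 (SE 0.15) and -0.45 (SE 0.18). Gch1, the first enzyme of cofactor synthesis, named after its values were seen, was at 20.9, 27.4 and 34.9 cpm in WT and 23.9, 28.8 and 41.3 cpm in HET. Its groups overlapped too, with a log2 fold change of 0.16 (SE 0.19). The 5 genes of dopamine synthesis had a median of -0.12, with 1 higher, 4 lower and 0 called. Of these, 2 lower genes, Qdpr and Pts, had an unadjusted p under 0.05, both with all samples and without HET_4566. With the exon length index as a covariate the log2 fold changes were -0.18 for Qdpr and -0.24 for Pts, and the list had 3 higher, 2 lower, 0 at an unadjusted p under 0.05 and a median of 0.01. Pts, at 1036 bases, lies in the shortest group from which the index is made, so its value is no independent test.

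The transcription factors of dopamine neurons were mostly above WT by small amounts. Of 10 genes, 9 were higher and 1 lower, 0 were called, 0 had an unadjusted p under 0.05, and the median log2 fold change was 0.25, or 0.30 without HET_4566. Nr4a2, which maintains the dopaminergic phenotype, was at 24.3, 36.1 and 56.0 cpm in WT and 34.1, 43.1 and 59.7 cpm in HET. Pitx3, needed for the survival of nigral dopamine neurons, was at 3.51, 4.29 and 6.78 cpm in WT and 3.30, 5.77 and 8.63 cpm in HET. The groups overlapped for both, with log2 fold changes of 0.25 (SE 0.21) and 0.30 (SE 0.22). The median of the list was 0.10 with the exon length index as a covariate and 0.04 without the 5 samples high in Meg3, both chosen after the data were seen.

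Genes of dopamine neuron subtypes and of Parkinson disease were about evenly split. The 14 subtype genes had a median log2 fold change of -0.01, with 7 higher and 7 lower, and the 15 Parkinson disease genes tested had a median of -0.02, with 7 higher and 8 lower. Kcnj6, the GIRK2 potassium channel of ventral-tier neurons, was at 8.14, 13.4 and 18.2 cpm in WT and 11.3, 16.5 and 25.7 cpm in HET. The neurotensin receptor Ntsr1 was at 37.8, 46.3 and 81.1 cpm in WT and 47.8, 62.7 and 94.0 cpm in HET, and in both genes the groups overlapped. With all samples, 1 subtype gene, lower in HET, had an unadjusted p under 0.05. Without HET_4566, 1 lower gene and 2 higher ones, Kcnj6 and Ntsr1, had one. The median of the subtype list was then -0.09, and it was 0.19 without WT_4329 and WT_4394.

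Genes that respond to RET and the MAP kinase pathway lay on both sides of WT. Of 12 genes, 6 were higher and 6 lower, 0 were called, 2 had an unadjusted p under 0.05, and the median log2 fold change was 0.01. Those were Spry4, described above, and Spred2, an inhibitor of the same pathway, at 18.6, 23.5 and 25.9 cpm in WT and 24.5, 27.1 and 37.0 cpm in HET. Spred2 overlapped between the groups, with a log2 fold change of 0.29 (SE 0.13). Dusp6, the phosphatase of ERK and a direct target of its activity, was lower, at 17.4, 21.8 and 24.9 cpm in WT and 12.6, 17.0 and 24.5 cpm in HET. Its log2 fold change was -0.30 (SE 0.15), and -0.39 without HET_4566.

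Microglial markers were lower in HET in every member of the list. Of 14 genes, 0 were higher and 14 lower, 0 were called, 10 had an unadjusted p under 0.05, and the median log2 fold change was -0.44 against 0.00209 for all genes. Without HET_4566, 12 had an unadjusted p under 0.05 and the median was -0.53. Summed over the list, levels were 755, 834 and 1131 cpm in WT and 515, 742 and 821 cpm in HET. The ranges overlapped, with WT_4394 the lowest WT sample and HET_4566 the highest HET sample. None of the 14 markers was at 0. In bulk tissue, fewer cells of a type and less RNA per cell cannot be told apart.

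C1qa (Entrez 12259, chromosome 4, 136895916 to 136898844), a chain of complement C1q, was at 60.5, 71.0 and 86.8 cpm in WT and 43.3, 55.8 and 63.7 cpm in HET. Csf1r (Entrez 12978, chromosome 18, 61105572 to 61131139), the receptor that microglia need to survive, was at 102, 129 and 147 cpm in WT and 90.6, 94.4 and 128 cpm in HET. In both the ranges overlapped while the HET median lay below the lowest WT sample. The log2 fold changes were -0.45 (SE 0.13) for C1qa and -0.31 (SE 0.10) for Csf1r, and each had an adjusted p of 0.518 by edgeR. Trem2, a lipid-sensing receptor, was at 10.1, 12.9 and 23.0 cpm in WT and 7.97, 9.90 and 14.3 cpm in HET, where HET_4566 was the highest.

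The exon length index was higher in HET while these 14 genes had a median exon length of 1991.5 bases against 3010 for all genes tested. The part of transcript length in their lower levels was examined only by adding the index as a covariate. Members such as C1qa (1082 bases) and Trem2 (1146 bases) lie in the shortest group (30 to 1224 bases), from which the index is made. For such members the covariate is no independent test. With the index as a covariate 14 of 14 genes were lower, the median was -0.20 and 4 had an unadjusted p under 0.05. Without the 5 samples high in Meg3, 14 of 14 were lower, the median was -0.22 and 3 had an unadjusted p under 0.05. Without WT_4329, WT_4394, HET_4566 and HET_4628 the median was -0.46, 8 had an unadjusted p under 0.05 and Itgam was called (adjusted p = 0.0166 by edgeR). This fit leaves out the WT samples lowest in Itgam.

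Oligodendrocyte markers were also lower as a group. Of 20 genes, 0 were higher and 20 lower, 0 were called, 8 had an unadjusted p under 0.05, and the median log2 fold change was -0.33, or -0.31 without HET_4566. The list summed to 22270, 34050 and 41540 cpm in WT and 19460, 27720 and 31450 cpm in HET. WT_4394 and WT_4329, the lowest of their group, lay below the HET median. Mbp, which encodes myelin basic protein and was the member of highest cpm, was at 7912, 13178 and 15542 cpm in WT and 7830, 10726 and 14664 cpm in HET. Its groups overlapped, 5 of 7 HET samples were below the WT mean, and the log2 fold change was -0.15 (SE 0.16, adjusted p = 0.681 by edgeR). Cldn11 (Entrez 18417, chromosome 3, 31149920 to 31164326), the tight junction protein of myelin, was at 493, 691 and 889.6 cpm in WT and 403, 532 and 553 cpm in HET. All HET samples were below the WT mean of Cldn11, and the ranges overlapped. Its log2 fold change was -0.42 (SE 0.13). With the exon length index as a covariate the median of the list was -0.16 and 1 gene had an unadjusted p under 0.05. Without WT_4329 and WT_4394 it was -0.49 and 15 had one.

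Other glial lists differed less. Of 14 astrocyte markers 1 was higher and 13 lower, with a median log2 fold change of -0.14, and Gfap, the intermediate filament of reactive astrocytes, was at 788, 1208 and 1962 cpm in WT and 662, 838 and 1203 cpm in HET. Gfap overlapped between the groups (log2 fold change -0.52, SE 0.20). Of 8 markers of oligodendrocyte precursors 3 were higher and 5 lower, with a median of -0.12. Enpp6, a marker of newly forming oligodendrocytes, was at 69.6, 91.1 and 130.0 cpm in WT and 44.8, 58.9 and 97.6 cpm in HET (log2 fold change -0.58, SE 0.24). Of 12 markers of endothelium and mural cells 4 were higher and 8 lower, with a median of -0.13. That list turned without WT_4329, to 8 higher and 4 lower with a median of 0.15, and its median was 0.43 without WT_4329 and WT_4394. The 7 meningeal fibroblast markers did likewise, with medians of -0.12 with all samples and 0.54 without WT_4329.

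Markers of striatal projection neurons were higher in HET, and HET_4566 stood far above the other samples. Of 20 genes, 19 were higher and 1 lower, 0 were called, 10 had an unadjusted p under 0.05, and the median log2 fold change was 0.89. Without HET_4566, 19 of them were tested, 14 were higher and 5 lower, the median was 0.13 and 2 had an unadjusted p under 0.05. Adora2a (Entrez 11540, chromosome 10, 75316877 to 75334792) was at 1.04, 1.22 and 2.39 cpm in WT and 0.442, 1.87 and 79.4 cpm in HET, where 79.4 cpm was HET_4566 and the next HET sample was at 2.30 cpm. Its log2 fold change was 3.09 (SE 0.97), and 0.19 without that sample. Drd1, the dopamine receptor of the direct pathway, was at 2.61, 3.03 and 5.90 cpm in WT and 2.67, 4.17 and 58.6 cpm in HET, with a log2 fold change of 1.76 (SE 0.64), and 0.17 without HET_4566. Drd2, which dopamine neurons also carry as an autoreceptor, was at 38.9, 43.4 and 72.8 cpm in WT and 37.8, 59.0 and 75.9 cpm in HET, with a log2 fold change of 0.25 (SE 0.19).

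2 markers of the striatal list kept an unadjusted p under 0.05 without HET_4566. Rgs9, which shortens dopamine receptor signalling, was at 18.7, 23.3 and 38.9 cpm in WT and 30.7, 38.8 and 227 cpm in HET, and its log2 fold change was 1.29 (SE 0.43), or 0.52 without that sample. Pde10a, the striatal phosphodiesterase, was at 33.2, 38.2 and 50.3 cpm in WT and 42.2, 52.5 and 374 cpm in HET, with a log2 fold change of 1.27 (SE 0.43), or 0.34 without it. For both, all 7 HET samples were above the WT mean and the ranges overlapped.

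Cortical excitatory markers followed the samples high in the cortical index in both groups. They summed to 124, 142 and 498 cpm in WT and 153, 218 and 475 cpm in HET, with WT_4329, WT_4394 and HET_4566 the highest. Of 11 genes tested 4 were higher and 7 lower, the median log2 fold change was -0.14, and it was -0.42 without HET_4566 and 1.04 without WT_4329 and WT_4394. Its sign differed with which of these samples were kept.

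Immediate-early genes, which neurons induce within minutes of activity, were higher in HET in most of the list with all samples and about evenly split without HET_4566. Of 16 genes tested 15 were higher and 1 lower, 0 were called, 3 had an unadjusted p under 0.05, and the median log2 fold change was 0.35. Egr1 (Entrez 13653, chromosome 18, 34861207 to 34864956) was at 12.3, 17.3 and 43.2 cpm in WT and 26.5, 30.8 and 79.7 cpm in HET. Its highest WT sample was WT_4394 and its highest HET sample HET_4566, and every HET sample was above all WT samples but WT_4394. The log2 fold change was 0.90 (SE 0.31), and 0.62 without HET_4566. Npas4, induced by calcium entry, was at 1.11, 3.34 and 8.01 cpm in WT and 3.36, 8.53 and 15.03 cpm in HET, with the same samples highest. Without HET_4566, 9 of the 16 genes were higher and 7 lower, and 1 had an unadjusted p under 0.05. The median of the list was then 0.15. Without WT_4329 and WT_4394, 16 of 16 genes were higher, 11 had an unadjusted p under 0.05 and the median was 0.86. Without WT_4329, WT_4394, HET_4566 and HET_4628, 14 of 15 were higher, 7 had one and the median was 0.51. The part of cortical and striatal tissue in these values was not tested.

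Glutamate genes were higher more often than lower. Of 19 genes, 16 were higher and 3 lower, 0 were called, 5 had an unadjusted p under 0.05, and the median log2 fold change was 0.21, or 0.20 without HET_4566 and 0.09 with the exon length index as a covariate. Grin2b, an NMDA receptor subunit, was at 1.85, 2.55 and 4.12 cpm in WT and 2.19, 3.85 and 14.0 cpm in HET, with HET_4628 and HET_4566 the highest. Grin2d, another subunit, was at 14.6, 19.1 and 24.1 cpm in WT and 16.4, 22.6 and 42.6 cpm in HET, and its 3 highest samples were those high in Meg3. The groups overlapped for both, with log2 fold changes of 1.22 (SE 0.41) and 0.54 (SE 0.24).

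Markers of midbrain GABA neurons had a median log2 fold change of -0.20, with 2 of 10 higher and 8 lower. Pvalb, the calcium buffer of fast-spiking neurons, was at 84.9, 150.3 and 214 cpm in WT and 69.0, 93.0 and 128 cpm in HET, and the ranges overlapped (log2 fold change -0.61, SE 0.25). The 18 GABA genes had a median of 0.04, with 11 higher and 7 lower. Markers of neighbouring tissues varied between samples of both groups. Ttr, made by choroid plexus, ran from 1.33 to 238 cpm in WT and from 4.93 to 263 cpm in HET, and Hdc, of hypothalamic histamine neurons, from 0.89 to 88.2 cpm in WT and from 5.55 to 69.1 cpm in HET.

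Genes with short transcripts were lower in HET as a class. Over the 10 groups of genes by exon length the median log2 fold change went from -0.17 in the shortest (30 to 1224 bases) to 0.13 in the longest (6556 to 104320 bases), and without HET_4566 from -0.21 to 0.14. Of 92 genes of the cytosolic ribosome tested, 8 were higher and 84 lower, 0 were called, 8 had an unadjusted p under 0.05, and the median was -0.27. Of 90 genes of the respiratory complexes tested, 7 were higher and 83 lower, 0 were called, 6 had an unadjusted p under 0.05, and the median was -0.25. Without HET_4566 the ribosomal list had 11 lower genes at an unadjusted p under 0.05 and a median of -0.33. The respiratory list then had 18 such genes and a median of -0.30. Without the 5 samples high in Meg3 the medians were -0.05 and -0.08. The median exon lengths of these lists were 777 and 756 bases, within the shortest group from which the exon length index is made. Their medians with the index as a covariate, 0.02 and 0.01, are therefore no independent test.

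Atp5g1, a subunit of the ATP synthase ring, was at 76.7, 85.6 and 101 cpm in WT and 58.0, 72.9 and 83.6 cpm in HET (log2 fold change -0.25, SE 0.10). Rps18, a protein of the small ribosomal subunit, was at 91.5, 133 and 145 cpm in WT and 64.4, 94.0 and 102 cpm in HET (log2 fold change -0.47, SE 0.16). Both overlapped between the groups, with 7 of 7 HET samples below the WT mean. Ribosomal protein genes have processed copies elsewhere in the genome, so their single values are uncertain.

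Genes within 10 Mb of Gdnf on chromosome 15 were examined because they travel with the allele. Of 69 genes there, 49 were tested, 20 were higher and 29 lower, 0 were called, 2 higher and 1 lower had an unadjusted p under 0.05, and the median log2 fold change was -0.03. Wdr70 (chromosome 15, 7873055 to 8099209) was at 14.8, 15.7 and 18.6 cpm in WT and 12.8, 13.6 and 17.2 cpm in HET, with overlap and a log2 fold change of -0.18 (SE 0.09). 2410089E03Rik (chromosome 15, 8169106 to 8271158) was at 35.9, 47.4 and 61.9 cpm in WT and 53.3, 65.9 and 105 cpm in HET, with a log2 fold change of 0.61 (SE 0.22). Its 3 highest samples were the HET samples high in Meg3.

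Lists of immune genes differed in direction with the samples kept. Of 15 interferon response genes 5 were higher and 10 lower, with a median log2 fold change of -0.08, and of 7 genes of the major histocompatibility complex 3 were higher and 4 lower, with a median of -0.07. Without WT_4329 and WT_4394, 13 of 14 interferon response genes were higher and 6 had an unadjusted p under 0.05, with a median of 0.16. The median of the histocompatibility genes was then 1.08, with 5 higher and 2 lower and 4 at an unadjusted p under 0.05, and it ran from -0.36 without HET_4578 to 0.43 without WT_4394 when each sample was left out. With the exon length index as a covariate the medians were 0.07 and 0.31. The histocompatibility genes had a median exon length of 1193 bases, within the shortest group that makes the index. Their value with it is no independent test. Of 10 neurotrophic factors and receptors tested 7 were higher and 3 lower, with a median of 0.12. Of 10 markers of the thalamus and subthalamic nucleus 5 were higher and 5 lower, and of 8 hippocampal markers tested 4 were higher and 4 lower.

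Some genes, chosen after their values were seen, were split within groups. Cwc22 (Entrez 80744), a splicing factor, was at 17.1 and 17.5 cpm in WT_4545 and WT_4329 and between 133 and 259 cpm in the other 4 WT samples. In HET it was at 16.3 to 19.3 cpm in 4 samples and at 84.6 to 129.9 cpm in 3. Gm8909 (Entrez 667977, chromosome 17, 36164444 to 36168537) had 0 counts in all 6 WT samples and 1.18 to 1.92 cpm in HET_4564, HET_4566, HET_4577 and HET_4578, with 0 in the other 3 HET samples. Tmem181c-ps was at 0.412 to 16.4 cpm in WT and 11.7 to 30.6 cpm in HET. Cwc22, Gm8909 and Tmem181c-ps have near-identical copies in the genome, so their counts are uncertain. The mice were of mixed 129Ola/ICR/C57bl6 background, and which strain's sequence each carried at these genes was not examined, so 0 counts may not mean that a gene was not expressed.

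**Figure D3:**
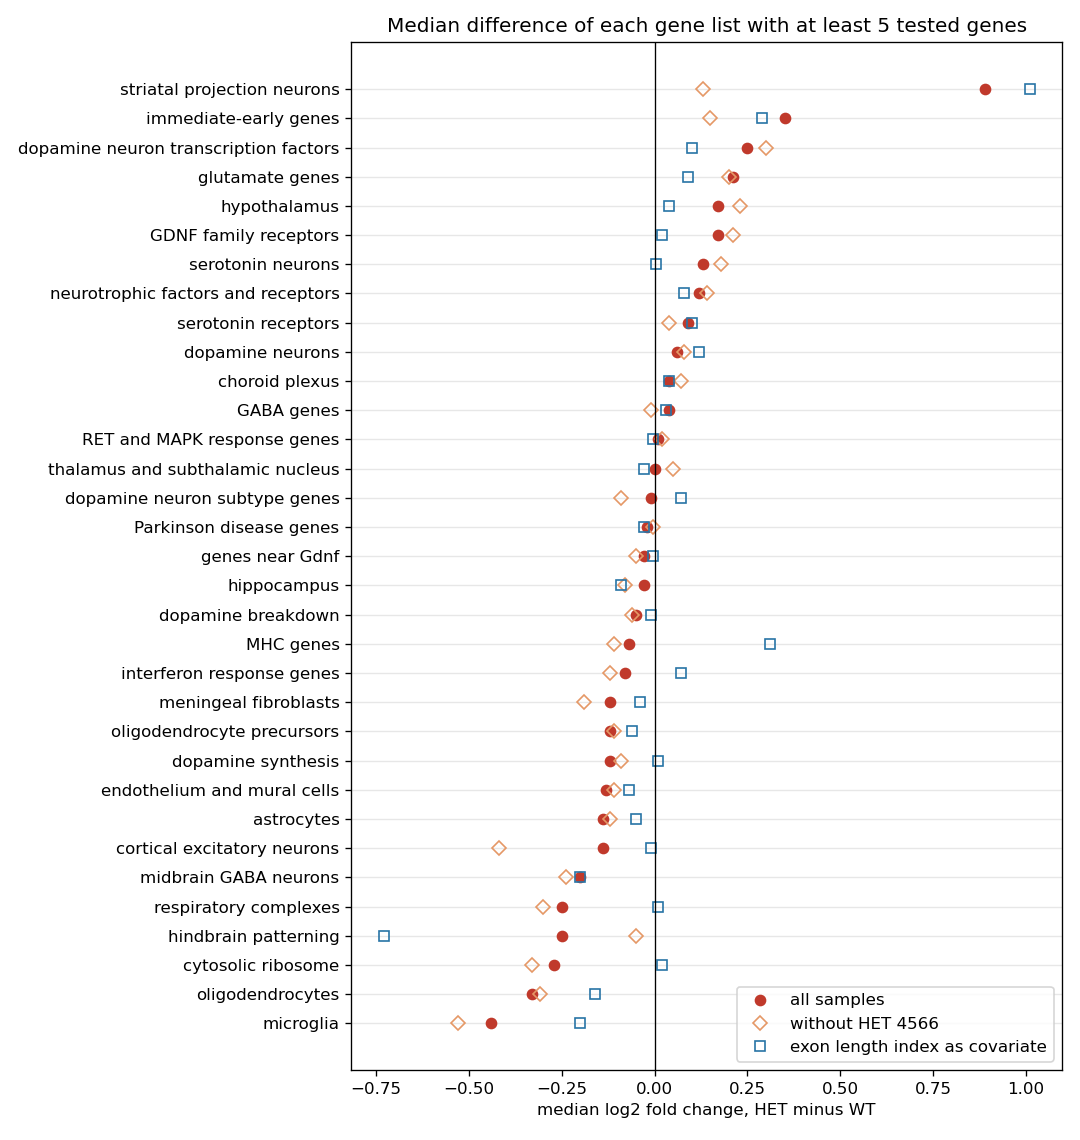
Median log2 fold change of HET minus WT for each gene list with at least 5 tested genes, with all samples (filled circles), without HET_4566 (open diamonds) and with the exon length index as a covariate (open squares). The striatal list moves from 0.89 to 0.13 without HET_4566. The ribosomal and respiratory lists, at -0.27 and -0.25, hold short genes of the kind the covariate is made from, so their squares near 0 are no independent test.

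Whether a single copy of the allele differed from 2 copies was asked by a direct test of HET against HOM SN (n = 6 HOM). No gene was called between HET and HOM by edgeR's quasi-likelihood test or DESeq2, while the likelihood ratio test called 92, and the microglial and oligodendrocyte lists lay on the same side of WT in both. HET and HOM are each set against the same WT samples here, so their values stand side by side only. The quasi-likelihood test of edgeR called 0 of 14873 genes between HET and HOM, with 262 at an unadjusted p under 0.05 (1.76%) and a smallest adjusted p of 1. Against WT, the microglial median was -0.44 in HET and -0.28 in HOM, the oligodendrocyte median was -0.33 in both, and Itgam had a log2 fold change of -0.56 in HET and -0.61 in HOM. The ribosomal list was at -0.27 in HET and -0.08 in HOM.

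The comparison with STR of the same model (n = 7 HET and 6 WT) asked where the nigral difference was not also that of the striatum. In both regions the microglial and oligodendrocyte lists were lower in HET, with smaller medians in STR, and the difference between these medians was not tested. The microglial median was -0.44 in SN and -0.21 in STR, and the oligodendrocyte median was -0.33 in SN and -0.14 in STR. Lists of other tissues differed between HET and WT in STR, with medians of 3.03 for choroid plexus, -0.93 for cortical excitatory neurons and 1.17 for dopamine transport, and their part in the glial values was not tested. The difference between regions was called for 0 of 15262 genes by edgeR's quasi-likelihood test, with 1302 at an unadjusted p under 0.05 (8.53%) and a smallest adjusted p of 0.333. DESeq2 called 18 and the likelihood ratio test 394. For Itgam the log2 fold change was -0.56 in SN and -0.16 in STR, and the difference had an adjusted p of 0.567. Ears2 was higher in HET in both regions of these largely shared mice, by 0.43 in SN and 0.51 in STR.

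The comparison with SN of the AAV-Cre model (n = 7 HET and 7 WT) asked where the difference was particular to the allele being active from mid-gestation, although the models also differ in age. In the AAV-Cre SN the microglial median was 0.06 and the oligodendrocyte median 0.13, against -0.44 and -0.33 in the Nestin-Cre SN, and the difference between these medians was not tested. The astrocyte and precursor medians were -0.02 and -0.01 in the AAV-Cre SN. Other lists lay further from 0 there, at 4.18 for choroid plexus and -0.54 for striatal projection neurons, and their part in the glial values was not tested. The difference between models was called for 0 of 15108 genes by edgeR's quasi-likelihood test, with 2120 at an unadjusted p under 0.05 (14.0%) and a smallest adjusted p of 0.157. DESeq2 called 16 and the likelihood ratio test 689. Akap9 had a log2 fold change of 0.50 in the Nestin-Cre and -0.09 in the AAV-Cre SN, a difference of 0.58 (SE 0.12, adjusted p = 0.172). Itgam differed by -0.68 (adjusted p = 0.268). Gsn differed by -0.83 (SE 0.19, adjusted p = 0.199). Model, age and viral injection cannot be told apart here.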

How the data were processed

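Whole-number counts per gene were used as deposited by the authors, with the exon length that their table gives for each gene. The submitters' processing notes name bcl2fastq 2.20.0.422, STAR 2.5.2b and featureCounts 1.5.1 with the mm10 genome. The table held 24412 genes, of which 6 without a symbol carry their Entrez IDs, and 0 value columns were left unused. In R 4.3.3, genes reaching 1 cpm in 3 or more libraries were tested with edgeR 4.0.16 (TMM scaling, trended dispersion, quasi-likelihood F test, two-sided). WT, HET and HOM SN entered 1 fit, and the standard error (SE) was taken as the absolute log2 fold change divided by the root of F. P values were adjusted by the Benjamini-Hochberg method over all genes tested, with a threshold of 0.1. DESeq2 1.42.0 and edgeR's likelihood ratio test were alternatives, and figures were drawn with matplotlib 3.10.9. Scripts were tested on simulated data.

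Named genes were a fixed set of GDNF and dopamine genes, the 10 with the smallest p in each direction, the 5 with the smallest p in each direction without HET_4566, for each list up to 4 members with an unadjusted p under 0.05 with or without HET_4566, and for each marker list its member of highest cpm. Some genes that this takes are not reported here. Members and lists were chosen with earlier results of these data known. Replicates were separate mice by the mouse numbers in their labels, and no pair of samples in a group was alike within counting noise (chi-square per degree of freedom 6.85 at the lowest, median 36.2). SN and STR samples of the same mouse had deviations from their group means correlated at a median r of 0.238 over 18 pairs (-0.0895 to 0.553), against -0.0089 over 343 pairs of different mice (-0.404 to 0.501), and the ranges overlapped. These correlations are across genes, which are not independent replicates. The pairing comes from the mouse numbers. The prefrontal cortex was used only for the cortical index, the marker check and the alternative fit with all 3 regions.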

Additional observations from a re-analysis of the deposited data

Results flagged for a closer look

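In 30 of 198 sets of values (1 gene or index in 1 group) the highest or lowest sample lay far from the others by Dixon's test. The test gives about 1 in 20 by chance for independent sets of normally distributed values. These sets share the same samples, and some genes were named through differences that HET_4566 largely carried. That rate is therefore no measure of an excess here. HET_4566 was far above the other HET samples in the striatal index (20.6%, next 3.46%), the cortical index (23.2%, next 5.15%), Gdnf (1.66 cpm, next 0.673) and Adora2a (79.4 cpm, next 2.3). The same sample was highest in Drd1 (58.6 cpm), Rgs9 (227 cpm), Pde10a (374 cpm), Scn4b (363 cpm), Nrgn (228 cpm), Wfs1 (82.6 cpm) and Egr1 (79.7 cpm). It was also highest in 1700063D05Rik (4.32 cpm), Htr3a (2.4 cpm), Slc5a7 (9.35 cpm) and Trem2 (14.3 cpm). The log2 fold change of 1700063D05Rik was -1.67 with all samples. Without HET_4566 it was -2.52 (adjusted p = 0.494 by edgeR's quasi-likelihood test), and the groups overlapped in both.

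WT_4394 stood above the other WT samples in Drd1 (5.9 cpm), Egr1 (43.2 cpm), Npas4 (8.01 cpm) and Alas2 (21.1 cpm). WT_4609 stood above them in Drd2 (72.8 cpm), Ntsr1 (81.1 cpm) and Gabbr1 (678 cpm) and below them in Ndufaf8 (9.72 cpm). WT_4329 was highest in Hoxb3 (4.81 cpm) and lowest in Slc1a2 (1280 cpm), and WT_4529 was highest in Trem2 (23 cpm). Among HET samples, HET_4628 was highest in Spred2 (37 cpm) and lowest in Cnp (881 cpm), and HET_4579 was highest in Ttr (263 cpm) and Alas2 (14.5 cpm).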

How the results depend on the processing

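Against 0 genes called between HET and WT by edgeR's quasi-likelihood test, DESeq2 called 5 and the likelihood ratio test 332. After seeing the data, samples were left out or covariates added: 1 gene was called without WT_4329 and WT_4394 and 2 without these, HET_4566 and HET_4628. Leaving out each sample in turn called 0 to 1 genes, the 1 being Itgam without WT_4329 or without WT_4394. For HET against HOM the likelihood ratio test called 92. For SN against STR, DESeq2 called 18 and the likelihood ratio test 394, and with the mouse as a replicate block 0 were called, with 1162 at an unadjusted p under 0.05. The block changed no call, and no other comparison was fitted with it. For Nestin-Cre against AAV-Cre, DESeq2 called 16 and the likelihood ratio test 689. The difference in mean striatal index, 2.36 percentage points, ran from -0.172 (without HET_4566) to 2.96. That of the cortical index, 1.28, was -0.908 over the marker list and ran from -1.5 to 2.84 when each sample was left out.

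Of 2504 log2 fold changes of 93 named genes under the alternatives, 2375 kept their direction and side of the threshold, 90 changed sign and 39 passed it where the first did not. The fit without HET_4566 enters these counts 2 times, on its own and among the fits that leave out each sample. Without HET_4566 these had the other sign: Slc6a3 0.01, Ddc 0.01, Scn4b -0.08, Nrgn -0.43, Calb2 0.01, Hdc 0.06 and Ttr 0.03. With the exon length index as a covariate these did: Ret -0.00091, Th 0.01, Slc6a3 0.06, Slc18a2 0.02, Ddc 0.11, Nr4a2 -0.0029, Hoxb3 -0.50, Prph -0.12 and Vtn 0.04. Without WT_4329 and WT_4394: Htr3a 0.32, Calb2 0.08, Hdc 0.78, Ttr 0.26, Vtn 0.46 and Alas2 0.43. Without these, HET_4566 and HET_4628: Ddc 0.03, Scn4b -0.34, Calb2 0.16, Hdc 0.92, Ttr 0.37, Vtn 0.35 and Alas2 0.48. Without the 5 samples high in Meg3: Ret -0.10, Pitx3 -0.08, Hdc 0.07, Hoxb3 -0.54, Slc5a7 0.04 and Ttr 0.16. Ddc was 0.01 with all 3 regions in the fit, and Prph was -0.00075 with DESeq2, -0.0029 with its size factors, -0.01 with only HET and WT samples and -0.02 without HOM_4575. Leaving out each sample in turn gave Alas2 -0.56 to 0.22, Calb2 -0.12 to 0.01, Ddc -0.09 to 0.07, Hdc -0.42 to 0.69, Hoxb3 -0.94 to 1.78, Igf2 -0.04 to 0.67, Nrgn -0.43 to 0.43, Prph -0.23 to 0.64, Scn4b -0.08 to 0.43, Slc18a2 -0.11 to 0.06, Slc6a3 -0.09 to 0.07, Tph2 -0.53 to 0.25, Ttr -0.73 to 0.67 and Vtn -0.26 to 0.11. The cause of these differences was not tested. At 13769516 to 25305502 counts per sample, Gdnf had 4 to 38 counts, which limits the precision of its values.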
